A study of Macrostomum lignano with 16 samples.

Results

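Of 76437 transcripts in the deposited table, 7 were selected for being higher in worms kept in groups of 8 than in any other social setting, with a bounded step between pairs and worms kept alone. In each of them all 4 libraries from groups of 8 (octet) lay above all 12 other libraries. Members were selected on their values in all 16 libraries. The mean CPM (estimated reads per 1000000 reads of the library) was at least 4, the octet mean was at least 2 times the mean of worms kept as constant pairs (paired), and the paired mean was under 1.6 times the mean of worms kept alone (isolated). The library total leaves out RNA815_80.1, the most abundant transcript. Every value of every library entered this choice, so the height of the octet libraries and their distance from the others are a description and not a finding. The 7 transcripts carry 6 distinct numbers, since RNA815_10152.2 and RNA815_10152.3 share one.

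The libraries came from pools of whole adult Macrostomum lignano, a small free-living marine flatworm. All 16 were of strain DV1, aged 66 to 69 days, fed with diatoms and held for 64 days in 1 of 4 social settings with 4 pools each. Octet worms lived 8 together, and paired worms lived 2 together. Joined worms lived alone until they were given a partner for the final 24 h, and isolated worms lived alone throughout. The pools contain whole bodies, so fewer cells of a type and less RNA per cell cannot be told apart, and a p-value measures the spread between pools and not between single worms.

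Adults of M. lignano carry testes and ovaries side by side and can mate in both roles. Its sex allocation, the division of resources between sperm and eggs, is known to shift with the number of social partners, and worms in larger groups are known to have larger testes. Setting groups of 8 against pairs compares numbers of partners, and setting pairs against worms kept alone compares having a partner with having none. The deposited table gives transcripts by identifier only, so none of the 7 can be given a gene name, a function or a tissue. Gene groups could not be formed either.

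Depth was 7302416 to 10112451 estimated reads per library. RNA815_80.1 took 9.17% to 21.5% of them. The 7 transcripts held between 8 estimated reads (RNA815_40134.2 in paired replicate 4) and 4867 estimated reads (RNA815_10152.2 in octet replicate 1) in a library. No transcript lengths were used here, so levels are compared between groups for a transcript and not between transcripts.

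A mean of at least 4 CPM was reached by 23788 transcripts, and in 478 of these all octet libraries lay above all others. The same separation was found in 1.37% of the 40265 transcripts that entered the tests. Over the 478, the octet mean was at the median 1.39 times the paired mean. The ratio reached 2 in 19 transcripts, of which 12 had a paired mean at or above 1.6 times the isolated mean and 7 did not. Another 372 transcripts met the same limit on paired over isolated worms but had an octet mean under 2 times the paired mean.

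**Figure D1:**
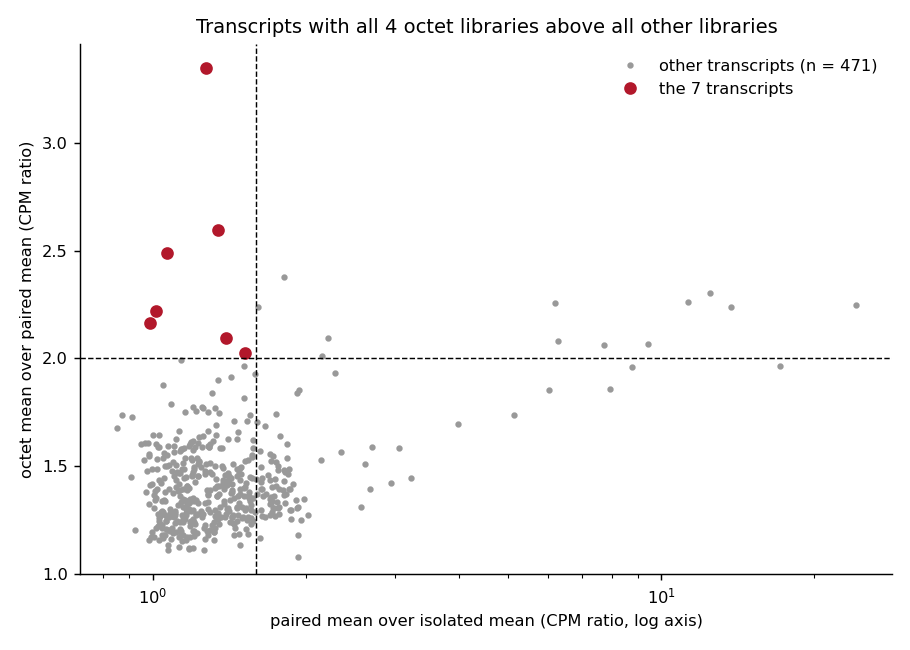
Ratio of the octet mean to the paired mean (vertical) against the ratio of the paired mean to the isolated mean (horizontal, log axis) for the 478 transcripts with all octet libraries above all others; dashed lines mark 2 and 1.6. The 7 transcripts (red) lie at 2.03 to 3.34 on the vertical and 0.991 to 1.52 on the horizontal axis, as chosen, and the others (grey) lie mostly below the horizontal line.

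The limits of the choice fall within a gradual range of values. Just inside the limit on octet over paired stood RNA815_30220 at 2.03 and RNA815_23356 at 2.09, and just outside stood RNA815_16329 at 1.99 and RNA815_28296 at 1.96. For paired over isolated, RNA815_30220 at 1.52 and RNA815_23356 at 1.39 were just inside, and RNA815_21941 at 1.61 and RNA815_4329.1 at 1.82 were outside. The lowest mean among the 7 was 4.24 CPM in RNA815_40134.2, followed by RNA815_26649 at 9.89 CPM, and RNA815_17291.1 at 3.98 CPM and RNA815_41078 at 2.93 CPM were left out. For the separation itself, the lowest octet library was 1.09 times the highest other library in RNA815_10152.3 and in RNA815_10152.2. It was 0.993 times in RNA815_16439 and 0.973 times in RNA815_10152.1, which missed only this condition.

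RNA815_10152.2 and RNA815_10152.3 followed each other closely. RNA815_10152.2 had 576, 615, 325 and 421 CPM in octet replicates 1 to 4, against 226, 149, 221 and 299 CPM in paired replicates 1 to 4. It had 183, 194, 157 and 151 CPM in joined replicates and 273, 169.8, 259.6 and 201 CPM in isolated replicates. The octet libraries split into a higher pair (replicates 1 and 2) and a lower pair (replicates 3 and 4), and paired, joined and isolated libraries overlapped each other. RNA815_10152.3 had 168, 194, 96.5 and 132 CPM in octet replicates, against 67.2, 43.7, 65.6 and 88.8 CPM in paired replicates. Joined replicates had 47.7, 55.5, 42.9 and 43.0 CPM, and isolated replicates had 84.4, 59.0, 55.5 and 62.2 CPM. Octet replicate 3 was the lowest octet library in both transcripts, and paired replicate 4 came closest to it.

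The octet mean of RNA815_10152.2 was 484 ± 135 CPM, against 224 ± 61.2 CPM in paired, 171 ± 20.4 CPM in joined and 226 ± 48.7 CPM in isolated worms (SD, n = 4 each). RNA815_10152.3 averaged 147 ± 42.3 CPM in octet, 66.4 ± 18.4 CPM in paired, 47.3 ± 5.91 CPM in joined and 65.3 ± 13.1 CPM in isolated worms (SD, n = 4 each). In both, paired and isolated means differed by far less than the spread between pools, and the paired mean of RNA815_10152.2 was 0.991 times its isolated mean. This was the lowest such ratio among the 7.

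A further transcript of the same number, RNA815_10152.1, was left out by the choice because octet replicate 3 (1003 CPM) lay just below isolated replicate 1 (1031 CPM). Its octet replicates had 2062, 2145, 1003 and 1243 CPM, against 800.5, 514, 826 and 902 CPM in paired replicates. Its mean was 1613 ± 576 CPM in octet, 761 ± 169.9 CPM in paired, 595 ± 117 CPM in joined and 808 ± 174 CPM in isolated worms (SD, n = 4 each). RSEM, the authors' counting program, estimates how to share out reads that could come from more than 1 transcript, so the 3 levels depend on each other. The division between them was steady: RNA815_10152.2 held 21.9% ± 1.45 of the number's summed CPM in octet, 21.2% ± 1.41 in paired, 21.2% ± 1.94 in joined and 20.6% ± 2.27 in isolated worms (SD over 4 libraries each). The whole number moved together, with a summed level of 2245 ± 751 CPM in octet worms, against 1051 ± 246 CPM in paired, 813 ± 134 CPM in joined and 1099 ± 225 CPM in isolated worms (SD, n = 4 each).

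RNA815_30887.2 had 45.1, 60.8, 64.3 and 78.4 CPM in octet replicates 1 to 4, against 20.3, 15.6, 25.1 and 34.8 CPM in paired replicates. Its joined replicates had 14.0, 11.7, 14.6 and 19.5 CPM, and isolated replicates had 17.3, 14.2, 20.5 and 19.3 CPM. Paired replicate 4 was the highest library outside octet and paired replicates 1 and 2 lay within the isolated range. The means were 62.1 ± 13.7 CPM in octet, 23.9 ± 8.21 CPM in paired, 15.0 ± 3.29 CPM in joined and 17.8 ± 2.73 CPM in isolated worms (SD, n = 4 each). The octet mean was 2.59 times the paired mean, the second highest ratio of the 7.

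The transcript that shares its number, RNA815_30887.1, had 17.5, 19.5, 13.2 and 22.3 CPM in octet replicates, against 7.77, 7.60, 9.60 and 17.7 CPM in paired replicates. Joined replicates had 2.45, 4.76, 5.56 and 5.42 CPM, and isolated replicates had 5.39, 7.35, 5.85 and 9.90 CPM. Here paired replicate 4 lay within the octet range and the octet mean was 1.70 times the paired mean, so the transcript missed both conditions. RNA815_30887.2 made up 77.1% ± 4.55 of the number's summed CPM in octet, 69.6% ± 3.19 in paired, 76.7% ± 6.42 in joined and 71.5% ± 6.35 in isolated worms (SD over 4 libraries each).

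RNA815_40134.2 had the largest octet to paired ratio, 3.34, and the fewest reads. It had 7.22, 6.70, 12.5 and 10.6 CPM in octet replicates 1 to 4, against 2.29, 2.87, 4.53 and 1.36 CPM in paired replicates. Its joined replicates had 3.75, 2.35, 2.96 and 2.13 CPM, and isolated replicates had 2.14, 3.33, 1.67 and 1.54 CPM. The 12 libraries outside octet overlapped throughout, and they held 8 to 34 estimated reads each, against 43 to 89 in octet libraries. The means were 9.24 ± 2.76 CPM in octet, 2.76 ± 1.33 CPM in paired, 2.80 ± 0.724 CPM in joined and 2.17 ± 0.817 CPM in isolated worms (SD, n = 4 each).

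Its number is shared with RNA815_40134.1, which did not have the pattern. RNA815_40134.1 had 114, 101, 121 and 101 CPM in octet replicates, against 107, 115, 104 and 95.7 CPM in paired replicates. The octet and paired groups overlapped, with means of 109.5 ± 10.0 CPM among octet libraries and 105 ± 7.86 CPM among paired libraries (SD, n = 4 each). RNA815_40134.2 therefore took a larger share of its number in octet worms, 7.73% ± 1.92, against 2.53% ± 1.18 in paired, 3.23% ± 0.834 in joined and 2.34% ± 0.794 in isolated worms (mean and SD, n = 4 each). The share was 5.94% to 9.45% in octet libraries and at most 4.24% in any other library. It follows from the counts that chose RNA815_40134.2 and is a description. The share also depends on how reads were divided by estimation between a scarce and an abundant transcript of 1 number.

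**Figure D2:**
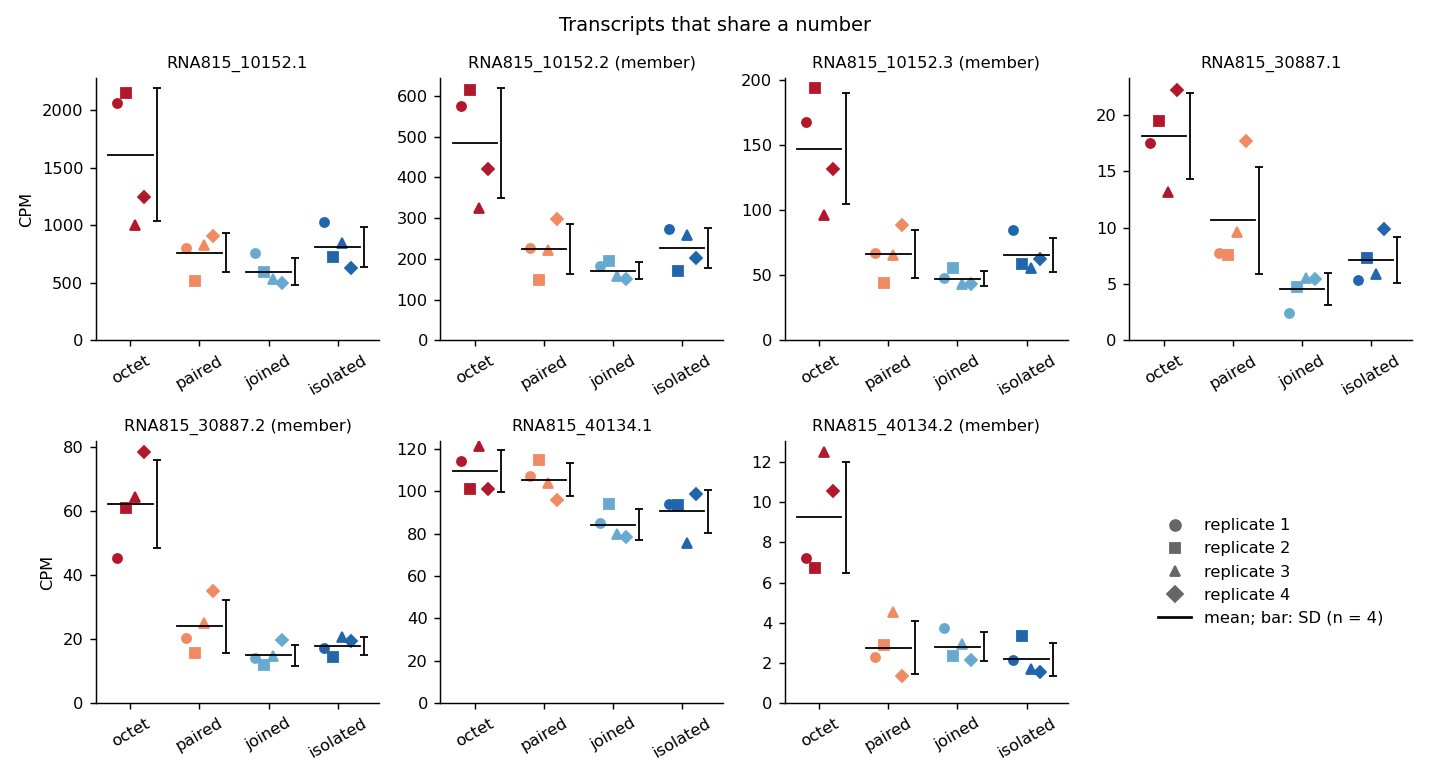
CPM in every library for the 7 transcripts of the numbers RNA815_10152, RNA815_30887 and RNA815_40134, with the mean (line) and SD (bar, n = 4) of each group; marker shapes show the replicate. The 3 transcripts of RNA815_10152 have the same profile, RNA815_30887.1 has paired replicate 4 (17.7 CPM) among its octet libraries, and RNA815_40134.1 overlaps between octet and paired worms where RNA815_40134.2 does not.

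Over these transcripts outside the choice, 2 of 3 were called higher in octet than in paired worms, where 1.03% of all tested transcripts were called higher (limma-voom, adjusted p under 0.05). RNA815_10152.1 differed by 1.198 on the log2 scale (SE 0.24, limma adjusted p = 0.0199). RNA815_30887.1 differed by 1.01 on the log2 scale (SE 0.25, limma adjusted p = 0.0468). RNA815_40134.1 missed the threshold, at a log2 difference of 0.21 (SE 0.11, limma adjusted p = 0.304). Since reads are divided within a number, the first 2 are not independent of the chosen transcripts. Both calls were lost without octet replicate 1, octet replicate 2, paired replicate 1 or paired replicate 2. With octet replicate 4, paired replicate 3, joined replicate 2, 3 or 4, or isolated replicate 1, 2 or 4 left out, 1 of the 2 was lost. Where both were lost, 23, 256, 40 and 51 of all tested transcripts were called, in the order given, against 580 in the main model.

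The other 3 transcripts do not share a number with any row of the table. RNA815_26649 had 24.4, 16.5, 15.2 and 17.7 CPM in octet replicates 1 to 4, against 7.39, 4.59, 8.13 and 9.51 CPM in paired replicates. Joined replicates had 6.69, 4.86, 6.98 and 8.54 CPM, and isolated replicates had 7.35, 8.42, 7.24 and 4.79 CPM. The ranges of paired, joined and isolated libraries overlapped almost wholly here. The means were 18.4 ± 4.09 CPM in octet, 7.41 ± 2.07 CPM in paired, 6.77 ± 1.51 CPM in joined and 6.95 ± 1.53 CPM in isolated worms (SD, n = 4 each).

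RNA815_23356 had 305, 304, 289 and 391 CPM in octet replicates 1 to 4, against 93.2, 83.8, 176 and 263 CPM in paired replicates. Its joined replicates had 67.7, 57.8, 96.3 and 160.2 CPM, and isolated replicates had 89.6, 78.6, 141 and 133 CPM. The spread between paired pools was the widest of any group of the 7 transcripts, with a coefficient of variation of 54.3%. Paired replicate 4 came close to the lowest octet library, and paired replicates 1 and 2 lay within the isolated range. The means were 322 ± 46.5 CPM in octet, 154 ± 83.6 CPM in paired, 95.5 ± 46.1 CPM in joined and 111 ± 31.0 CPM in isolated worms (SD, n = 4 each).

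RNA815_30220 had 98.8, 80.12, 68.6 and 91.8 CPM in octet replicates 1 to 4, against 43.0, 34.6, 40.7 and 49.1 CPM in paired replicates. Joined replicates had 26.3, 23.2, 20.6 and 22.2 CPM, and isolated replicates had 28.5, 26.8, 29.8 and 25.1 CPM. It had the narrowest spread among isolated pools, with a coefficient of variation of 7.33%, and its paired libraries all lay above all isolated libraries. The means were 84.8 ± 13.3 CPM in octet, 41.9 ± 6.01 CPM in paired, 23.1 ± 2.39 CPM in joined and 27.6 ± 2.02 CPM in isolated worms (SD, n = 4 each). Its values therefore form a stepped order, octet above paired above isolated, and a rise in groups of 8 alone was not shown for it.

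**Figure D3:**
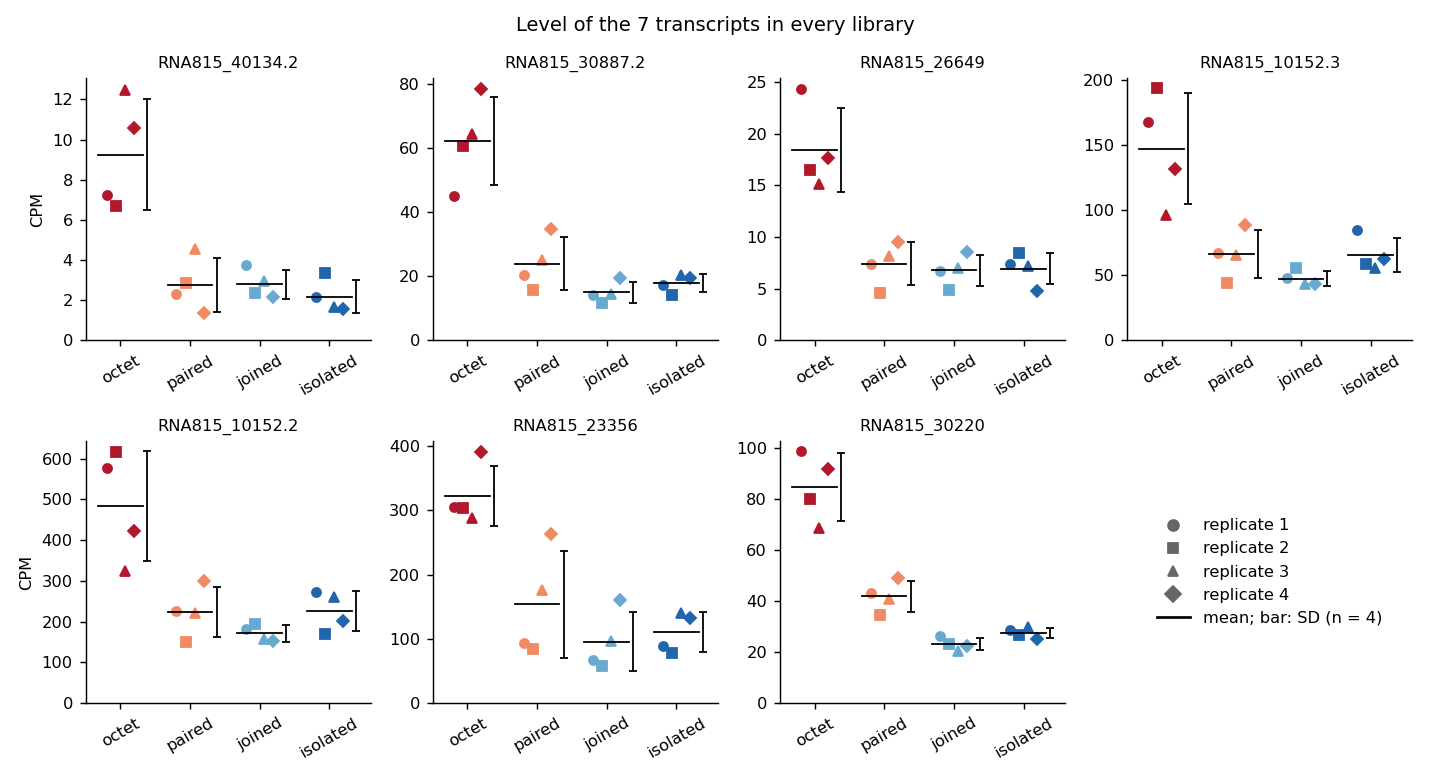
CPM of the 7 transcripts in every library, by group, with the mean (line) and SD (bar, n = 4); marker shapes show the replicate. By choice all octet libraries stand above the other 12, paired replicate 4 (orange diamond) is the highest of those 12 in 6 of the 7 panels, and RNA815_30220 is the only panel in which all paired libraries stand above all isolated ones.

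The fitted differences of octet worms describe the same choice on another scale. A linear model of log2 CPM over all 16 libraries (limma-voom) called all 7 transcripts higher in octet than in paired worms, where 1.03% of the 40265 tested transcripts were called higher. All 7 were also called higher than in isolated worms, against 12.8% of all, and higher than in joined worms, against 18.6% of all. Nothing is read from these counts, because the libraries that gave them also chose the transcripts. The median log2 fold change of the 7 was 1.38 against paired, 1.74 against isolated and 1.93 against joined worms, beside 0.00, -0.03 and -0.04 over all tested transcripts. Without octet replicate 1 the model called 4 of the 7 against paired worms, without RNA815_10152.2, RNA815_10152.3 and RNA815_23356, and a fit to the 8 octet and paired libraries alone called 1, RNA815_30887.2. Calls over the whole table fell as well, from 580 of 40265 in either direction to 23 of 40097 and 8 of 35786.

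The comparison of joined with isolated worms asks whether a day with a partner moved these transcripts. It did not enter the choice as a ratio, though both groups had to lie below octet. The limit on paired over isolated worms also set a floor under the isolated mean, and none was set under the joined mean. Joined values below isolated values may therefore come in part from the choice. None of the 7 was called in either direction, as none of all tested transcripts was (0% called, limma-voom). At an unadjusted p under 0.05 there was 1 of the 7, beside 5.89% of all tested transcripts, and limma-trend also called 0. The fitted difference was below 0 in 6 of the 7 and in 49.5% of all tested transcripts. The median log2 fold change was -0.35 for the 7 and 0.00 over all tested transcripts. The joined mean lay below the isolated mean in the same 6, and in 64.6% of the 478 transcripts with octet above all others. In all 7 the libraries of the 2 groups overlapped. The share of all tested transcripts with such overlap was not taken, so nothing is read from this.

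RNA815_10152.3 had the lowest value in joined against isolated worms, a log2 difference of -0.53 (SE 0.22, unadjusted p = 0.0263, adjusted p = 0.831, limma). RNA815_10152.2 stood at -0.46 (SE 0.22), and RNA815_40134.2 had the highest value, 0.31 (SE 0.36). The 95% intervals take no account of the choice, so they do not bound what a rise could have been. Their upper ends for joined over isolated worms were 1.103-fold in RNA815_30887.2, 1.35-fold in RNA815_26649, 1.24-fold in RNA815_23356 and 2.06-fold in RNA815_40134.2. They were 0.953-fold in RNA815_10152.3, 1.0016-fold in RNA815_10152.2 and 1.002-fold in RNA815_30220. The intervals are not adjusted for the number of transcripts.

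Paired worms were bounded against isolated worms by the choice, so their closeness is partly fixed. None of the 7 was called between them, where 1.81% of all tested transcripts were called in either direction. RNA815_30220 came nearest, with a log2 difference of 0.60 (SE 0.16, limma adjusted p = 0.0599). It was called in 5 of 28 alternatives, among them those without octet replicate 3 (limma adjusted p = 0.0322) and without paired replicate 2 (limma adjusted p = 0.0235). It was the 1 transcript of the 7 whose paired libraries all lay above all isolated libraries, a position held by 4.76% of all tested transcripts. For the other 6 the adjusted p ran from 0.493 to 0.996, and the 95% intervals reached up to 1.36-fold in RNA815_10152.2 and 2.09-fold in RNA815_40134.2, so equal levels were not shown.

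Joined worms set against paired worms compare a day in company with 64 days of it. The ratio of these groups did not enter the choice, but the values of both did, since paired worms were bounded from above and joined worms had to lie below octet. RNA815_30220 was lower in joined worms, with a log2 difference of -0.94 (SE 0.16, limma adjusted p = 0.00126). It was the 1 of 7 called lower there, where 3.25% of all tested transcripts were called lower, and also the 1 of 7 in which no joined library reached a paired library, beside 4.87% of all. Its call held in all 28 alternatives, with an adjusted p of 0.000226 to 0.00842. The value of RNA815_30887.2 was -0.71 (SE 0.23, limma adjusted p = 0.0780), which missed the threshold. The value of RNA815_23356 was -0.73 (SE 0.32, limma adjusted p = 0.200), which also missed it. The median of the 7 was -0.54, beside 0.02 over all tested transcripts, of which 48.3% were below 0. Over the 478 transcripts with octet above all others, the octet mean was at the median 1.39 times the paired and 1.91 times the joined mean. Joined levels below paired levels were thus not shown to be particular to the 7. The value of RNA815_40134.2 was -0.02 (SE 0.33) and lay above 0 in 6 of 27 alternatives. Without paired replicate 2, RNA815_30887.2 and RNA815_10152.3 were called lower as well, which makes 3 of the 7. With the replicate number as a term of the model, RNA815_30887.2 (limma adjusted p = 0.00658) and RNA815_23356 (limma adjusted p = 0.0218) were called lower as well. Calls over all tested transcripts, in either direction, were 1843 in the main model, 2391 without paired replicate 2 and 2963 with the replicate term.

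**Figure D4:**
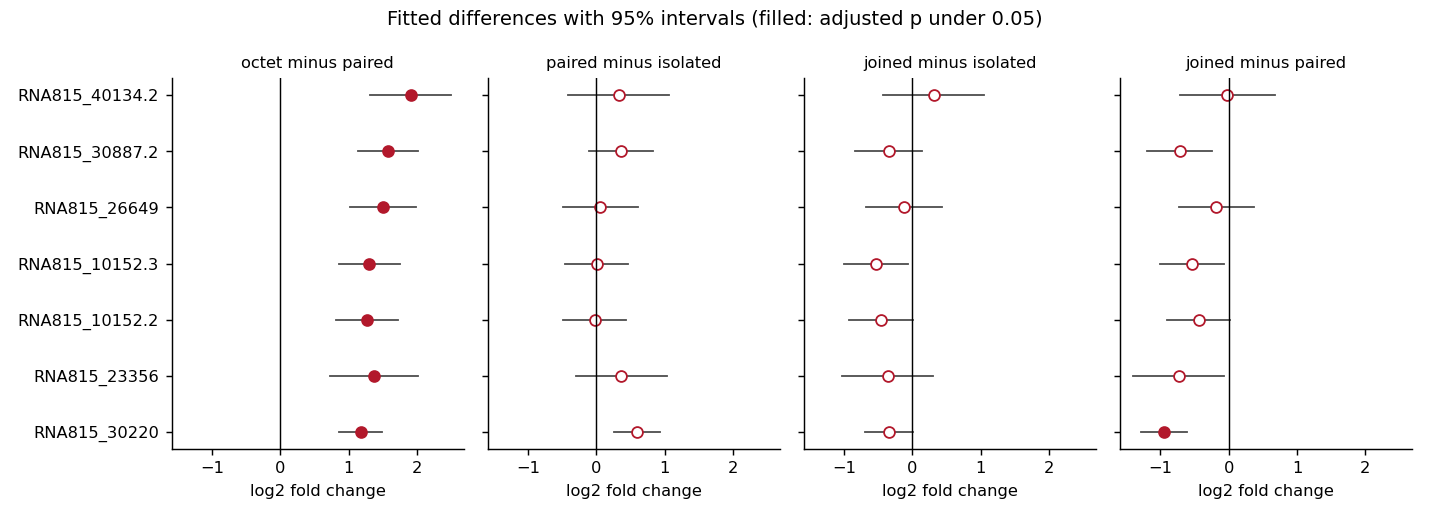
Fitted log2 fold changes (points) with 95% intervals (lines) of the 7 transcripts in 4 comparisons from the limma-voom model over 16 libraries; filled points have an adjusted p under 0.05. The first 2 panels show comparisons used in the choice; in the last 2 only RNA815_30220, in joined against paired worms, is filled at -0.94.

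The order of the group means was octet, then paired, isolated and joined in 5 of the 7 when read from the CPM means above, and the lower 3 groups were separated in RNA815_30220 alone, between paired and the other groups. In RNA815_26649, RNA815_10152.2, RNA815_10152.3, RNA815_23356, RNA815_30887.2 and RNA815_40134.2 no neighbours below octet passed the test. In RNA815_30220 neighbours did not pass either, while paired and joined worms, 2 places apart, did.

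Single libraries moved with the 7 transcripts. Paired replicate 4 was the highest of the 12 libraries outside octet in 6 of the 7, and in 40.4% of the 478 transcripts with octet above all others. It was the highest paired library in 44.8% of the 478 and in 33.7% of the 23788 transcripts with a mean of at least 4 CPM. Paired replicate 2 was the lowest paired library in the same 6, in 47.7% of the 478 and in 28.6% of the 23788. Octet replicate 3 was the lowest octet library in 5 of the 7, in 51.0% of the 478 and in 24.2% of the 23788. The TMM factor, which corrects a library's size for its composition, was 0.911 in paired replicate 4, 1.09 in paired replicate 2 and 1.06 in octet replicate 3. The part of these libraries in the pattern was not tested beyond leaving them out.

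Leaving out paired replicate 4 raised the number of transcripts that met the choice to 27, with all 7 among them. It was 12 without octet replicate 3, with 6 of the 7 among them, and 4 without paired replicate 2, with 3 of the 7. The scaling mattered as well. With library sizes after TMM scaling 16 transcripts met the choice, with 6 of the 7 among them. These library sizes include RNA815_80.1. RNA815_40134.2 dropped out there, at a mean of 3.68 CPM under the limit of 4. It also dropped out with RNA815_80.1 in the column total and no TMM scaling, at 3.61 CPM. RNA815_26649 and RNA815_30887.2 met the choice whichever 1 of the 16 libraries was left out.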

How the data were processed

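RNA from pools of whole worms was sequenced as single-end reads, 4 libraries per social setting. Per the submitters' processing notes the tools included Bowtie 0.12.7 and RSEM 1.1.19. The deposited table holds the authors' estimated counts per transcript with a decimal comma, and 23.8% of its cells are not whole. The genome build or transcriptome version behind the identifiers is not given in the sources used here.

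CPM was the estimated count over the library total without RNA815_80.1, times 1000000. For tests, counts were rounded, scaled by TMM and fitted with limma-voom (limma 3.58.1, R 4.3.3) as 4 groups over 16 libraries. P-values were adjusted by Benjamini-Hochberg over the 40265 transcripts that reached 1.26 CPM in at least 4 libraries and 15 reads in all, and the threshold was 0.05. All 7 chosen transcripts and the 3 that share a number with them passed the filter. The procedure was tested on simulated data. Transcripts were named if they met the choice, shared a number with one that did, or stood next to a limit. The members were chosen with earlier results of these data known. No 2 libraries of a group agreed within counting noise (24 pairs, chi-square over its degrees of freedom 2.76 to 21.5). This cannot show that the pools were independent cultures, which the labels do not say. Each library was counted as 1 sample. Alternatives covered scaling, filter, model, limits of the choice and leaving out each library.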

Additional observations from a re-analysis of the deposited data

Results flagged for a closer look

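In 10 transcripts, the 7 chosen and the 3 that share a number with them, 40 groups of 4 libraries were searched for a library far from the rest. One was found: octet replicate 4 of RNA815_23356, at 391 CPM, stood above the other octet libraries at 289 to 305 CPM. The gap made up 0.84 of the range of the group. Chance marks about 1 in 20 such groups.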

How the results depend on the processing

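No called difference changed sign, while 5 uncalled ones near 0 did. They were RNA815_26649 in joined against isolated worms (-0.29 to 0.03), RNA815_40134.2 in joined against paired worms (-0.22 to 0.26), and in paired against isolated worms RNA815_26649 (-0.11 to 0.29), RNA815_10152.3 (-0.18 to 0.21) and RNA815_10152.2 (-0.20 to 0.18). All 7 transcripts stayed higher in octet than in isolated and in joined worms with any 1 library left out (7 to 7). The choice largely fixed this in advance, so nothing is read from it. Over all tested transcripts, 5643 to 9975 were then called against isolated and 10704 to 15037 against joined worms, in either direction. Against paired worms the number called was 1 with a fit to the 8 libraries compared, and 4 to 7 with a library left out. Over all tested transcripts it was 580 in the main model, 8 with that fit and 23 to 3998 with a library left out. Between paired and isolated worms 0 became 1, RNA815_30220, with the replicate block (limma adjusted p = 0.0254), with limma-trend or with a quality weight per library, and 0 to 1 with a library left out. Between joined and paired worms 1 became 3 with the replicate block, through RNA815_30887.2 (limma adjusted p = 0.00658) and RNA815_23356 (limma adjusted p = 0.0218), and 1 to 3 with a library left out. Over all tested transcripts the block raised the calls from 1843 to 2963. With transcripts summed by number, 3 of the 6 numbers were called, RNA815_30220, RNA815_30887 and RNA815_40134, and the last holds mostly RNA815_40134.1. Of all 35247 numbers tested, 1770 were called. Joined against isolated worms gave 0 to 0. Of the 3 transcripts outside the choice 2 were called, and 1 with upper-quartile scaling, 1 with no filter, 1 with limma-trend, 0 at an adjusted p under 0.01, 0 with the fit to 8 libraries, and 0 to 2 with a library left out.

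The choice found 7 transcripts, and 16 with library sizes after TMM scaling, 19 with median-ratio factors, 12 with RNA815_80.1 in the total and 26 with upper-quartile factors, the last added after seeing the data. It found 12 at a minimum mean of 2 CPM, 100 with octet at least 1.5 times paired, 1 at 3 times, 4 with paired under 1.3 times isolated, 19 with no limit on paired, and 4 to 27 with a library left out. The cause of these changes was not tested.

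Same-numbered libraries of different groups had deviations with correlations of -0.13 to 0.39 in 24 pairs (median 0.07, against -0.02 for different numbers). In 10 pairs the correlation exceeded 0.1. The labels give no shared source, so the main model did not take the numbers as pairs. The deposited column headers number the libraries in sequence, with same-numbered libraries of the 4 groups next to each other. With the replicate number as a term of the model, 2388 of 40265 transcripts were called between octet and paired worms, against 580 without it. Whether the numbers mark a shared batch was not settled. In 12 of 24 cases a library matched best with its own number among 4 candidates. These cases use the same libraries again and again and are not independent, so nothing is read from the count. Few reads limit RNA815_40134.2 most.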

Other observations

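In RNA815_23356 replicates 3 and 4 lay above replicates 1 and 2 in each group outside octet. They had 176 and 263 CPM against 93.2 and 83.8 CPM in paired, 96.3 and 160.2 CPM against 67.7 and 57.8 CPM in joined, and 141 and 133 CPM against 89.6 and 78.6 CPM in isolated worms. The labels do not say what a replicate number stands for, and this pattern was noticed after the values were seen.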
